A study of Homo sapiens with 4 samples.

Results

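The family of miR-148 and miR-152 was followed through small RNA libraries made from native pull-downs of circHIPK3, a circular RNA formed from exon 2 of HIPK3. Earlier results of these data were known when the family was chosen. Its members were taken by name from the deposited list of mature miRNAs, not by a rule on read counts. They are the guide arms hsa-miR-148a-3p, hsa-miR-148b-3p and hsa-miR-152-3p and the passenger arms hsa-miR-148a-5p and hsa-miR-148b-5p, and all 5 were among the 2656 miRNAs listed. The material was RD, an established human cell line from an embryonal rhabdomyosarcoma (a cancer related to skeletal muscle), grown without any treatment and lysed in a buffer with a mild detergent. From this lysate, 1 library was made after capture with biotinylated antisense probes of the EVEN set and 1 with the ODD set, both directed at exon 2 of HIPK3. Another library came from probes against the bacterial LacZ mRNA, which have no target in these cells, and the last from the input. Each group thus held 1 library from 1 biological replicate, and every difference below lies between libraries, without a replicate check. Exon 2 is also part of linear HIPK3 mRNA, so RNA captured through either form cannot be told apart here, and how much circHIPK3 was captured was not analysed here.

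A miRNA guides an Argonaute protein to RNAs that pair with its seed, bases 2 to 8 from the 5′ end, and miRNAs with the same seed share most of their predicted targets. The guides of this family are known for repressing the DNA methyltransferase DNMT1 and the antigen-presenting molecule HLA-G, and they are lowered in many tumours. Of each hairpin, the 3p arm is the usual guide, and the 5p arm is the passenger, which is mostly degraded. Because miRNAs can be held by circular RNAs that carry seed matches, pull-downs of a circular RNA are used to ask which miRNAs come with it. miR-152-3p belongs to the family and was also named in an earlier reporter screen as a partner of circHIPK3.

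The mature sequences, from RefSeq on GRCh38.p14, are shown 5′ to 3′ because the members differ mainly just downstream of the seed. Seeds are in capitals. RefSeq entries matched 4 of the 5 members.
miR-148a-3p: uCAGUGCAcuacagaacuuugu
miR-148b-3p: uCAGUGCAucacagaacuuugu
miR-152-3p: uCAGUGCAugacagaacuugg
miR-148b-5p: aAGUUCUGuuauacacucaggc
Counted from the 5′ end, miR-148b-3p differs from miR-148a-3p by C9U and U10C, which leaves 20 of 22 positions identical. miR-152-3p differs from miR-148a-3p by C9U, U10G and U20G over the 21 positions compared, and from miR-148b-3p by C10G and U20G. How the authors' counting assigned reads that fit more than 1 of these guides is not stated in those sources that were used, so the split between them carries that uncertainty. Among the 2367 listed miRNAs with a RefSeq mature sequence, these 3 guides were the only ones with the seed CAGUGCA.

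The genes lie on 3 chromosomes of GRCh38. MIR148A (chr7:25949919-25949986, minus strand) lies outside any GENCODE gene that contains it, 202254 bases from the nearest protein-coding gene, NFE2L3. MIR148B (chr12:54337216-54337314, plus strand) lies in an intron of COPZ1, on the strand of its host. MIR152 (chr17:48037161-48037247, minus strand) lies in an intron of COPZ2, also on the host's strand. COPZ1 and COPZ2 encode paralogous subunits of the coat of transport vesicles between the endoplasmic reticulum and the Golgi.

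Exon 2 of HIPK3 (chr11:33286413-33287511, plus strand, 1099 bases) was searched on its sense strand for the complement of the seed. It held TGCACTG, the match to bases 2 to 8, once, and the base after it was an A, giving the longer match TGCACTGA at bases 926 to 933 of the exon. The match is shown in capitals within 30 bases of reference sequence from the coding part of the exon, since it is the stretch that all 3 guides could pair with.
HIPK3 exon 2, chr11:33287327-33287356, plus strand: caagtggccacTGCACTGAaaaaattgaaa
Joining the ends of the exon, as in the circle, added no further match. Of 21332 other exons of protein-coding genes cut to the same length, 2.37% held TGCACTGA and 9.63% held TGCACTG, of which TGCACTGA is an extension. TGCACTGA also contains GCACTGA, found once in exon 2 and in 7.72% of these exons. A match of letters describes the sequence and does not show a site in use.

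The libraries held 98950 miRNA reads with EVEN probes, 426450 with ODD probes, 425395 with LacZ probes and 2987858 in the input. A count of 0, taken as up to 3 reads, allows 30.3 CPM (counts divided by the library's miRNA total and put on a common scale) in EVEN, 7.03 in ODD, 7.05 in LacZ and 1.00 in the input. The 4 skeletal muscle miRNAs used to check the cell line, miR-206, miR-1-3p, miR-133a-3p and miR-133b, were found in every library and together took 3.50% to 10.4% of its reads. The 6 epithelial ones took 0.0166% to 0.0891% and the 5 blood ones 0.00305% to 0.0212%, miR-122-5p of liver had at most 11 reads, and miR-124-3p of neurons had 1 read in the input. Among the epithelial miRNAs, miR-205-5p had 20 reads in EVEN (202 CPM), 355 in ODD (832 CPM), 208 in LacZ (489 CPM) and 4 in the input (1.34 CPM). miR-203a-3p had 6, 15, 61 and 2 reads in the same libraries. The part of such miRNAs in the results below was not tested. In a lysate of many cells, fewer cells with a miRNA and less of it per cell cannot be told apart. A share of reads is also relative: where some miRNAs take more of a library, the rest take less.

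In every library miR-148b-3p was the most abundant member, and miR-148a-3p came second. miR-148b-3p had 268 reads in EVEN (2708 CPM, 95% exact Poisson interval 2394 to 3053), 646 in ODD (1515 CPM, 1400.2 to 1636), 2229 in LacZ (5240 CPM, 5025 to 5462) and 26813 in the input (8974 CPM, 8867 to 9082). It ranked 42nd, 48th, 36th and 30th among the miRNAs of these libraries. miR-148a-3p had 93 reads in EVEN (939.9 CPM, 759 to 1151), 219 in ODD (514 CPM, 448 to 586), 1412 in LacZ (3319 CPM, 3148 to 3497) and 25401 in the input (8501 CPM, 8397 to 8607), with ranks of 72, 83, 49 and 32. For both guides the 4 libraries had 1 order in CPM, ODD lowest, then EVEN, LacZ and the input, and no neighbouring counting intervals overlapped. The order of ODD and EVEN turned under other scalings, as the comparison of the probe sets shows. In CPM the pair was close to equal in the input and unequal in all pull-downs. This includes the LacZ control, with 3319 CPM of miR-148a-3p and 5240 CPM of miR-148b-3p.

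miR-152-3p, the remaining guide, was rare. It had 0 reads in EVEN, 3 in ODD (7.03 CPM, 1.45 to 20.6), 19 in LacZ (44.7 CPM, 26.9 to 69.7) and 216 in the input (72.3 CPM, 63.0 to 82.6). Its count of 0 in EVEN allows up to 30.3 CPM, a level above that of ODD, so EVEN and ODD cannot be ordered for this guide. The intervals of ODD and LacZ did not overlap, while those of LacZ and the input did.

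Both passenger arms were rarer than their guides in each library. miR-148b-5p had 4 reads in EVEN (40.4 CPM, 11.0 to 103.5), 13 in ODD (30.5 CPM, 16.2 to 52.1), 34 in LacZ (79.9 CPM, 55.4 to 112) and 349 in the input (117 CPM, 105 to 130). miR-148a-5p had 0 reads in EVEN, 1 in ODD (2.34 CPM, 0.0594 to 13.1), 9 in LacZ (21.2 CPM, 9.67 to 40.2) and 63 in the input (21.1 CPM, 16.2 to 27.0). For miR-148a-5p the EVEN library is uninformative, because its floor of 30.3 CPM exceeds the level in the 3 deeper libraries.

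**Figure D1:**
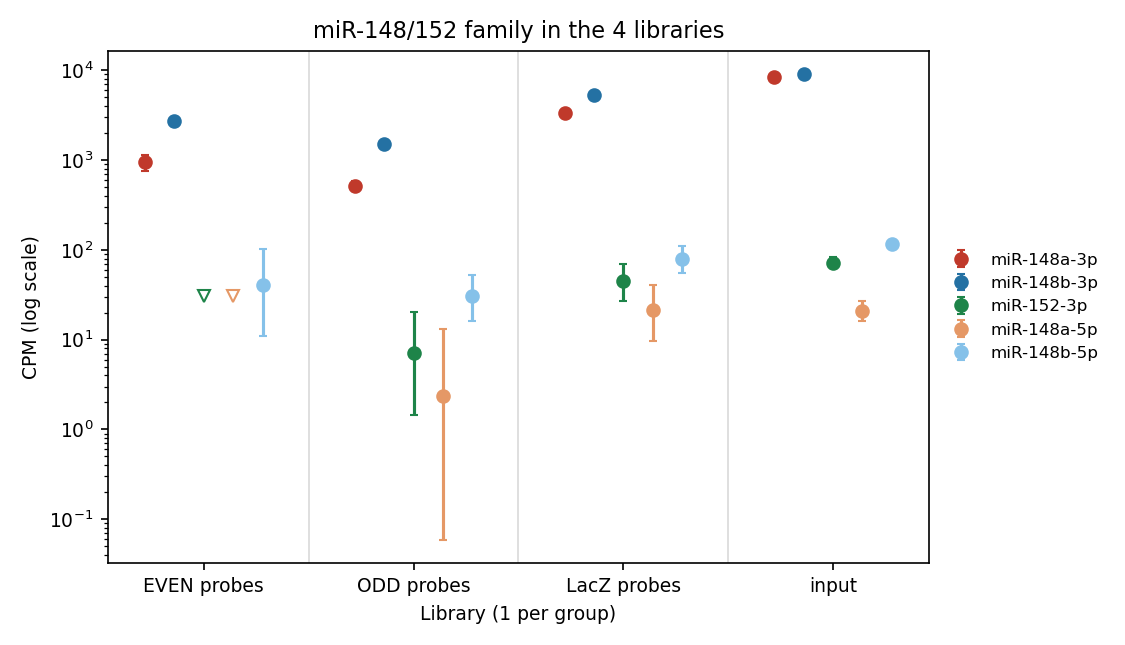
Scaled reads (CPM, log axis) of the 5 family members in the EVEN, ODD, LacZ and input libraries, 1 library each, with 95% exact Poisson intervals as bars; open triangles mark members with 0 reads, drawn at the floor of 3 reads. miR-148a-3p and miR-148b-3p sit together at the top of the input (8501 and 8974 CPM) and apart in the LacZ pull-down and the 2 circHIPK3 pull-downs.

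Whether the circHIPK3 probes recovered the family beyond what control probes retain is the question put by the comparison with LacZ. No member tested was called higher than LacZ with either probe set. With EVEN probes the 3 guides together took 0.365% of reads (95% exact binomial interval 0.328 to 0.404), against 0.860% with LacZ probes (0.833 to 0.889). This is 2.36-fold lower (95% exact conditional interval 2.12 to 2.63), a log2 ratio of -1.24 with 0.5 added to the sums. A miRNA was tested when 1 of the 2 libraries held at least 20 reads, and was called at 2-fold. Of the 289 miRNAs tested, 51.2% were lower by at least 2-fold with EVEN probes and 9.69% higher by as much, and their median log2 ratio was -1.06. The family guides thus lay 0.18 below that median on the log2 scale.

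Of the 3 members tested with EVEN probes, of which miR-148b-5p reached 20 reads only in LacZ, 1 was called lower and none higher, and their median log2 ratio was -0.95. miR-148a-3p was 3.53-fold lower than with LacZ probes (2.86 to 4.40), a log2 ratio above that of 28.4% of the miRNAs tested. miR-148b-3p was 1.93-fold lower (1.70 to 2.20), inside the 2-fold threshold, and its log2 ratio of -0.95 was above that of 51.9% of the miRNAs tested. The passenger miR-148b-5p, from 4 and 34 reads, was 1.98-fold lower with a wide interval of 0.705 to 7.67. miR-152-3p and miR-148a-5p fell short of 20 reads. miR-152-3p, with 0 reads against 19, was at least 1.47-fold lower against the floor of 3 reads, and its exact conditional interval begins at 1.09-fold lower. For miR-148a-5p, with 0 against 9 reads, no difference was detectable at this depth.

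With ODD probes the guides together took 0.204% of reads (0.190 to 0.218), against 0.860% with LacZ probes, 4.23-fold lower (3.92 to 4.56) and a log2 ratio of -2.08. Here 70.3% of the 300 miRNAs tested were at least 2-fold lower with ODD probes and 13% at least 2-fold higher, with a median of -1.79, so the guides lay 0.29 below the median. All 3 members tested were called lower, with a median log2 ratio of -1.79, equal at this precision to that of all miRNAs tested. Of these, miR-148b-5p reached 20 reads only in LacZ, the library where it is higher. miR-148a-3p was 6.46-fold lower (5.60 to 7.49), a log2 ratio that was above that of 24.7% of the miRNAs tested. miR-148b-3p was 3.46-fold lower (3.17 to 3.78), above 50.0%, that is, at the middle. miR-148b-5p was 2.62-fold lower (1.35 to 5.41), above 63.0%, and its log2 ratio of -1.36 turned to 0.091 with DESeq2's size factors.

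The members that missed the read minimum were also at least 2-fold lower with ODD probes. At a minimum of 1 read, 61.3% of 843 miRNAs were as low. miR-152-3p, from 3 reads against 19, was 6.35-fold lower, with an interval of 1.87 to 33.5. miR-148a-5p, from 1 read against 9, was 9.02-fold lower, with an interval of 1.25 to 395. The 2 comparisons share the LacZ library, so their agreement in direction is not independent.

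These folds depend on how the libraries are scaled. With edgeR's TMM factors the log2 ratio of the summed guides to LacZ became -0.97 for EVEN and -0.79 for ODD probes, each under 2-fold. DESeq2's size factors gave -0.83 and -0.63, also under 2-fold. Measured from the median of all miRNAs tested, they stayed at -0.18 and -0.29, since each of these scalings moves all miRNAs alike. miR-148a-3p was still called lower with both probe sets under these scalings, at -1.55 and -1.40 by TMM and at -1.41 and -1.24 by the DESeq2 factors. It was also called when the 10 most abundant miRNAs were left out of the totals, at -1.39 and -1.99. Of all miRNAs tested, 40.8% with EVEN and 34.3% with ODD probes were at least 2-fold lower by TMM. By the DESeq2 factors 37.0% and 32.0% were, and without the 10 most abundant 37.0% and 53.3%. The ODD call of miR-148b-3p was lost, at -0.50 by TMM and -0.34 by the DESeq2 factors. It was kept, at -1.09, when the 10 most abundant miRNAs were left out.

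**Figure D2:**
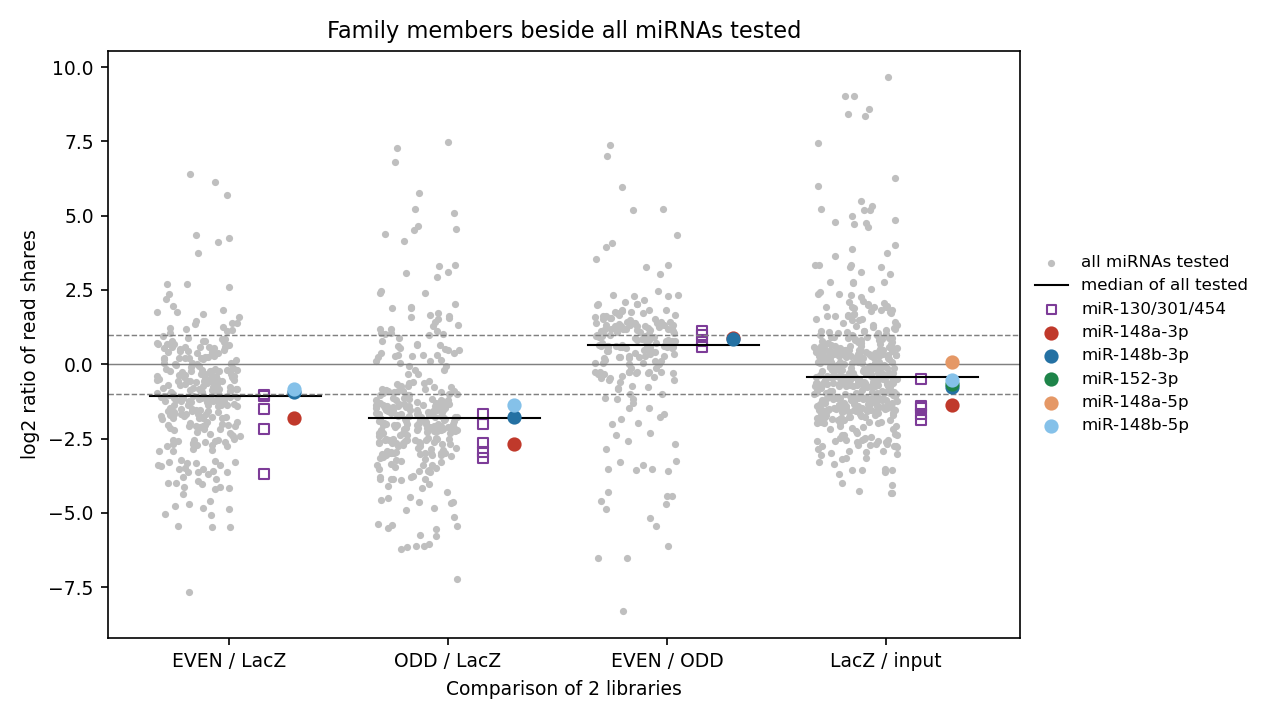
Log2 ratio of read shares for every miRNA tested (grey), their median (black line), the miR-130, miR-301 and miR-454 miRNAs (open squares) and the family members tested (coloured), in 4 comparisons of 2 libraries; dashed lines mark 2-fold. miR-148b-3p sits near the median against LacZ (-0.95 with EVEN, -1.79 with ODD), and miR-148a-3p lies below it (-1.81 and -2.69).

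The 2 probe sets were also set against each other, since both target exon 2. The guides together were 1.79-fold higher with EVEN than with ODD probes (1.58 to 2.03), a log2 ratio of 0.84. miR-148a-3p was 1.83-fold higher (1.42 to 2.34) and miR-148b-3p 1.79-fold higher (1.54 to 2.06), both above the median of 0.64 and under 2-fold. Of 203 miRNAs tested, 37.9% were higher by at least 2-fold with EVEN probes and 18.2% lower by as much, and neither of the 2 members tested was called. The direction turned with the scaling. The summed guides had a log2 ratio of -0.18 by TMM and -0.20 by the DESeq2 factors, so no direction between the probe sets is given for them.

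LacZ against the input compares read shares in the control pull-down with those in the lysate, and does not measure how much was retained. The guides took 0.860% of reads in LacZ and 1.75% in the input (1.74 to 1.77), 2.04-fold lower in LacZ (1.97 to 2.11) and 0.59 below the median log2 ratio of -0.44. By library totals the summed guides passed 2-fold only narrowly, with a log2 ratio of -1.03. This became -1.63 by TMM, -1.31 by the DESeq2 factors and -0.70 once the totals excluded the top 10 miRNAs. Of 475 miRNAs tested, 34.3% were at least 2-fold lower in LacZ and 18.1% at least 2-fold higher. By TMM 4 of the 5 members were called lower, beside 51.8% of all miRNAs tested, and by the DESeq2 factors 2, beside 40.8%. By library totals all 5 members were tested and 1, miR-148a-3p, was called, at 2.56-fold lower (2.43 to 2.70). miR-148b-3p was 1.71-fold lower (1.64 to 1.79), miR-152-3p 1.62-fold (1.01 to 2.74) and miR-148b-5p 1.46-fold (1.03 to 2.14). For miR-148a-5p, from 9 and 63 reads, no difference was resolved, with a ratio of 1.00 and an interval of 0.439 to 2.03.

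**Figure D3:**
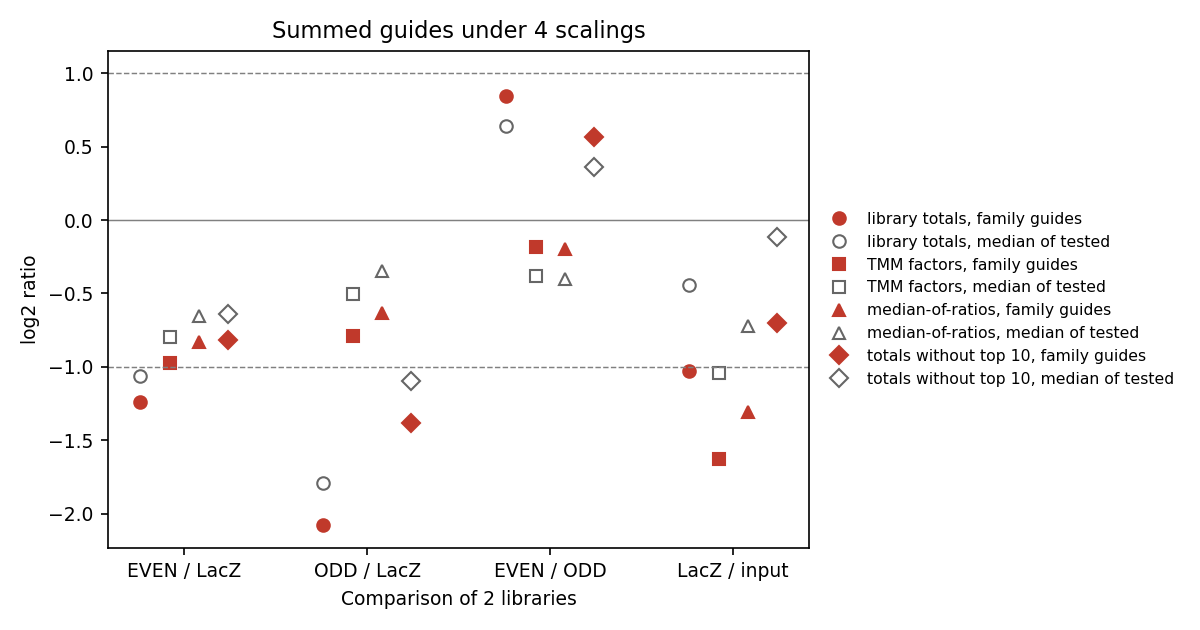
Log2 ratio of the 3 guides summed (red) and the median of all miRNAs tested (open grey) in each comparison, under 4 scalings given by the symbol; dashed lines mark 2-fold. Red and grey move together, and the EVEN to ODD ratio lies at 0.84 by library totals and at -0.18 with TMM factors.

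The balance between miR-148a-3p and miR-148b-3p does not depend on the scaling, because it is read within a library. miR-148a-3p made up 25.8% of the reads of this pair in EVEN (93 of 361, 95% exact binomial interval 21.3 to 30.6) and 25.3% in ODD (219 of 865, 22.5 to 28.4). It made up 38.8% in LacZ (1412 of 3641, 37.2 to 40.4) and 48.6% in the input (25401 of 52214, 48.2 to 49.1). The EVEN and ODD values overlapped, and both lay below LacZ, which lay below the input, with no overlap of intervals. Ligation and amplification favour some sequences, so a ratio of reads is not a ratio of molecules, and only its change between libraries is described.

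As a ratio of the 2 guides, miR-148a-3p to miR-148b-3p was 0.347 in EVEN and 0.339 in ODD, against 0.633 in LacZ. The EVEN ratio was 0.548 times that of LacZ (95% exact conditional interval 0.424 to 0.703), and the ODD ratio 0.535 times (0.451 to 0.634). The EVEN ratio was 1.02 times that of ODD (0.763 to 1.37), an interval that leaves room for a difference in either direction. The LacZ ratio was 0.669 times the 0.947 of the input (0.624 to 0.717). These intervals cover counting error only. On the log2 scale the change against LacZ was -0.87 with EVEN and -0.90 with ODD probes. Ratios within the miR-130, miR-301 and miR-454 family were also lower than in LacZ and are given with that family below.

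miR-152-3p stayed a minor part of the 3 guides throughout. It made up 0 of 361 guide reads in EVEN (upper limit 1.02%), 0.346% in ODD (0.0713 to 1.01), 0.519% in LacZ (0.313 to 0.809) and 0.412% in the input (0.359 to 0.471). All 4 intervals overlapped.

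**Figure D4:**
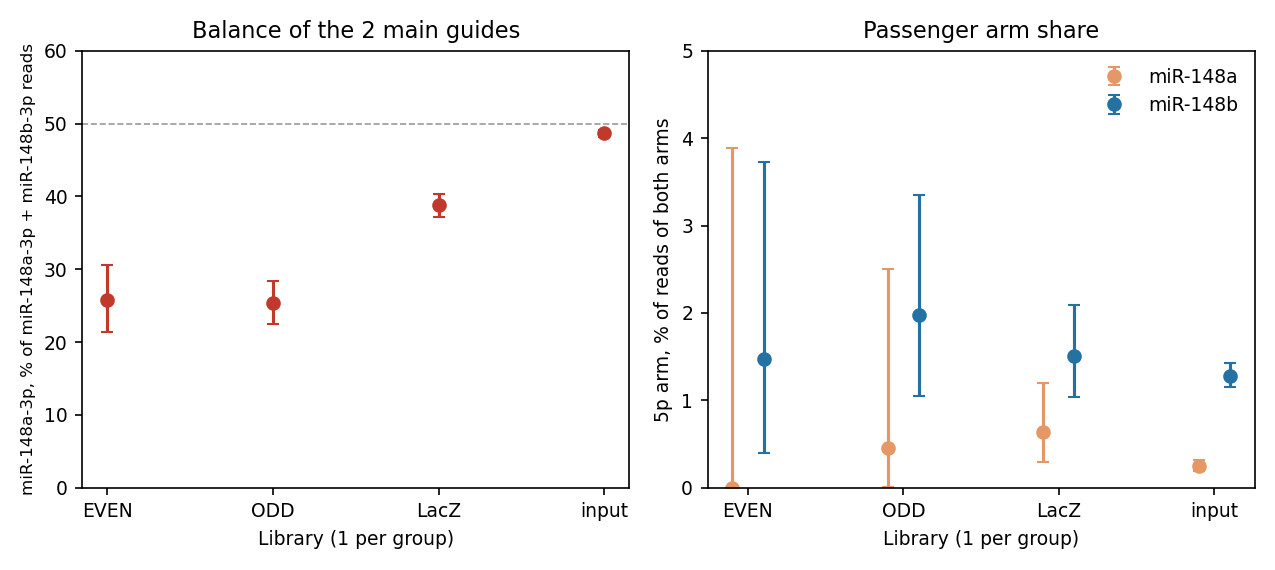
Left, miR-148a-3p as a percentage of the reads of miR-148a-3p and miR-148b-3p in each library, with a dashed line at equal reads; right, the 5p arm as a percentage of the reads of both arms of miR-148a and miR-148b. Points are single libraries and bars 95% exact binomial intervals; the left panel reads 25.8% in EVEN, 25.3% in ODD, 38.8% in LacZ and 48.6% in the input, and the intervals of miR-148b in the right panel all overlap.

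The arms of a hairpin gave a second ratio free of scaling. For miR-148b the 5p arm made up 1.47% of the reads of both arms in EVEN (0.402 to 3.72), 1.97% in ODD (1.05 to 3.35), 1.50% in LacZ (1.04 to 2.09) and 1.28% in the input (1.15 to 1.43), with overlapping intervals. Against LacZ, the ratio of miR-148b-5p to miR-148b-3p was 0.978 times as high with EVEN (0.250 to 2.77) and 1.32 times with ODD probes (0.635 to 2.58), intervals wide enough to hold a change in either direction. For miR-148a the 5p arm made up 0 of 93 reads in EVEN (upper limit 3.89%), 0.455% in ODD (0.0115 to 2.51), 0.633% in LacZ (0.290 to 1.20) and 0.247% in the input (0.190 to 0.316). The ratio of miR-148a-5p to miR-148a-3p was 2.57 times as high in LacZ as in the input (1.12 to 5.21), from 9 reads of the passenger in LacZ.

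The miRNAs of the miR-130, miR-301 and miR-454 family carry the same bases AGUGCA moved by 1 position, and are known to act in vascular growth and transforming growth factor signalling. They serve as a relative with a shifted seed. Sequences of 2 are shown to make the shift visible, with bases 2 to 8 in capitals.
miR-130b-3p: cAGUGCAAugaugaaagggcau
miR-301a-3p: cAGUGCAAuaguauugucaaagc
Their match to bases 2 to 8, TTGCACT, was absent from these letters of exon 2 and was found in 7.66% of the other exons. The shorter TGCACT, the match to their bases 2 to 7, occurs once in exon 2, inside the TGCACTGA shown above, and in 27.6% of the other exons. The deposited list also holds miR-3666 and miR-4295, which carry AGUGCA at bases 2 to 7. Both had 0 reads in every library and could not be tested. The 5 others, which are those compared here, were all tested against LacZ. All 5 were at least 2-fold lower with EVEN probes, with a median log2 ratio of -1.51 against -1.06 for all miRNAs tested, and all 5 with ODD probes, with a median of -2.65 against -1.79. In EVEN the less abundant of them had 2 to 14 reads, and in ODD the rarest had 15. These were tested only through LacZ, where they are higher, so their count is given as a description. With 5 added, 3 of the 5 stayed at least 2-fold lower with EVEN probes. miR-130a-3p, the most abundant, had 142 reads in EVEN, 279 in ODD, 1750 in LacZ and 45399 in the input. Relative to LacZ it was 2.87-fold lower in the EVEN library (2.41 to 3.43) and 6.29-fold lower in the ODD library (5.54 to 7.16), close to miR-148a-3p with ODD probes. miR-130b-3p, next in abundance, was 2.12-fold (1.61 to 2.83) and 3.17-fold lower (2.66 to 3.79). With TMM factors 3 of the 5 were at least 2-fold lower with EVEN and 3 with ODD probes, and all 5 log2 ratios were below 0 in both. Of all miRNAs tested, 51.2% with EVEN and 70.3% with ODD probes were as far below LacZ by library totals, and 40.8% and 34.3% by TMM.

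Against the input, 4 of these 5 were at least 2-fold lower in LacZ, as were 34.3% of all miRNAs tested. Their median log2 ratio was -1.47 against -0.44 for all miRNAs tested. Between the probe sets 4 were tested and 1, miR-130a-3p, was called, at 2.19-fold higher with EVEN than with ODD probes (1.78 to 2.69). With TMM factors its log2 ratio of 1.14 became 0.11. Against LacZ, the ratio of miR-301a-3p to miR-130b-3p was 0.439 times as high with EVEN (0.177 to 0.949, from 8 reads of miR-301a-3p). With ODD probes it was 0.400 times (0.234 to 0.657). For miR-130a-3p to miR-130b-3p the values were 0.739 with EVEN (0.532 to 1.04) and 0.504 with ODD (0.405 to 0.629). In LacZ against the input they were 0.828 (0.689 to 0.992) and 0.722 (0.653 to 0.800). A lower ratio than in LacZ was thus not particular to the miR-148 guides.

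The miR-29 guides, which target the DNA methyltransferases DNMT3A and DNMT3B, were compared because the guides of miR-148 and miR-152 target DNMT1. All 3 were at least 2-fold lower than with LacZ probes in both pull-downs, with median log2 ratios of -3.49 for EVEN and -2.99 for ODD, and with TMM factors 3 and 2 were. The shares of all miRNAs that were as low were 51.2% and 70.3% by totals and 40.8% and 34.3% by TMM. miR-29a-3p had 8 reads in EVEN, 30 in ODD, 242 in LacZ and 4970 in the input, and miR-29b-3p had 2, 11, 120 and 2381. In EVEN all 3 fell short of 20 reads, and in ODD miR-29b-3p did. These were tested only through LacZ, where they are higher. The EVEN median is the value of miR-29b-3p, from 2 reads, and the counts of miR-29 guides are given as a description. In LacZ all 3 were at least 2-fold lower than in the input, as were 34.3% of all miRNAs tested, with a median of -1.49. Between the probe sets 2 were tested, and miR-29c-3p, which reached 20 reads only in ODD, had 0 reads in EVEN. Against the floor of 3 reads it was at least 1.55-fold lower with EVEN probes, and its 2-fold call rests on the 0.5 added and was lost with 5 added. Of the 9 reporter-screen partners that include miR-152-3p, 6 reached 20 reads against LacZ, with medians of -2.05 with EVEN and -1.76 with ODD probes, beside -1.06 and -1.79 for all miRNAs tested. All 6 were at least 2-fold lower in each, as were 51.2% and 70.3% of all miRNAs, and 3 of the 6 lay below the overall median with ODD probes. In EVEN they had 2 to 8 reads, and in ODD most of them also fell short of 20 reads, with as few as 8. Those were tested only through LacZ, where they are higher, and their count is given as a description. With 5 added, 3 of the 6 were at least 2-fold lower with EVEN probes, beside 30.1% of all miRNAs tested. Their EVEN median became -0.81. With ODD probes all 6 stayed so, beside 69.3%. With TMM factors 4 were at least 2-fold lower with EVEN and 2 with ODD probes. By DESeq2's factors 4 of the 6 ODD ratios were below 0. Against the input 7 could be tested in LacZ and 3 were at least 2-fold lower, and 2 could be tested between the probe sets with none called.

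The miRNAs whose course over the 4 libraries was most like that of the summed guides were sought among the 298 other miRNAs with at least 100 input reads. Likeness was the Euclidean distance between log2 shares centred on their mean over the 4 libraries. The nearest was miR-194-5p (distance 0.28), with 4, 9, 43 and 506 reads in EVEN, ODD, LacZ and the input, so its place rests on few pull-down reads. It was followed by miR-20a-5p of the miR-17-92 cluster (0.30), with 758, 1501, 8422 and 102777 reads, and by miR-30c-5p (0.32), miR-99a-5p (0.34) and miR-532-5p (0.34). Of the guides themselves, miR-148b-3p lay at 0.45 and miR-148a-3p at 0.79, farther from their own sum than these 5.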

How the data were processed

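Small RNA libraries of RD cells (input, and native pull-downs with EVEN, ODD and LacZ probes) were prepared with a QIAseq miRNA kit and read single-end on an Illumina instrument, per the labels' protocols. Deposited by the authors were raw counts for each mature miRNA and CPM, which equal the counts scaled to the library total to within 1.46e-11 CPM. The submitters' processing notes name GRCh38. Not given in the sources used here are the aligner, the annotation and the treatment of shared reads, strand and molecular identifiers. If identifiers were not collapsed, the counting intervals are too narrow.

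With 1 library per group no test across replicates was made. Log2 ratios are of (count + 0.5) over the library total, folds are without the 0.5, and intervals are 95% exact (Poisson, Clopper-Pearson or conditional), covering counting error only. miRNAs with at least 20 reads in 1 of the 2 libraries were tested over the whole table and called at 2-fold. Alternatives used edgeR 4.0.16 for TMM factors, DESeq2 1.42.0 for size factors, totals that leave out the 10 most abundant miRNAs, and other constants, read minimums and thresholds. The calculation of ratios was run on simulated counts with counting noise only, which does not cover variation between libraries. Exon 2 and hairpins come from GENCODE release 29. The text names all 5 members, the 2 most abundant of each comparison list and the 5 nearest in course; the members and lists were chosen with earlier results of these data known. miR-301a-3p is printed for its sequence and its ratio to miR-130b-3p, and miR-29c-3p, miR-205-5p and miR-203a-3p were named after their values were seen. miR-3666 and miR-4295 are named for their shared bases AGUGCA. Python 3.11.15, scipy 1.17.1 and R 4.3.3 were used.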

Additional observations from a re-analysis of the deposited data

How the results depend on the processing

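For the summed guides against LacZ, the EVEN log2 ratio was -0.97 by edgeR's TMM, -0.83 by DESeq2's size factors and -0.82 without the 10 most abundant miRNAs in the totals, each under 2-fold, and the ODD ratio -0.79, -0.63 and -1.38. EVEN against ODD gave -0.18, -0.20 and 0.56, and LacZ against the input -1.63, -1.31 and -0.70. Members at least 2-fold lower with EVEN probes numbered 3 of 5 at a minimum of 1 read, where 31.4% of all miRNAs were as low, and 0 at a 4-fold threshold, where 26.3% were. With ODD probes they numbered 1 by TMM, 1 by the DESeq2 factors, 5 at a minimum of 1 read (61.3% of all miRNAs) and 1 at 4-fold (45.7%). In LacZ against the input they numbered 4 by TMM (51.8% of all miRNAs), 2 by the DESeq2 factors (40.8%) and 0 at 4-fold (11.6%). miR-148b-5p in ODD against LacZ turned to 0.091 by the DESeq2 factors, a value from 13 and 34 reads. Among all miRNAs tested, those at least 2-fold lower with ODD probes fell to 34.3% by TMM and 32.0% by the DESeq2 factors. Those higher with EVEN than with ODD probes fell to 9.85% and 9.36%, and those lower in LacZ than in the input rose to 51.8% by TMM. These shifts follow from the construction of the scalings, which move every miRNA of a library alike. The balance of the guides and the arm shares are the same under any scaling. The EVEN library, the shallowest, sets the limit for miR-152-3p and the passengers. No paired analysis was possible because each group holds 1 library.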
